A study of Mus musculus with 6 samples.

Results

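Glucocorticoid signalling was followed through 10 genes, chosen by their symbols from the 37620 genes of the deposited table. They comprised the corticosteroid receptor genes Nr3c1 and Nr3c2, Fkbp5 and Hsd11b1, which act on the receptor and on its hormone, and 6 genes that respond to glucocorticoids or to other stress, namely Sgk1, Tsc22d3, Ddit4, Cdkn1a, Errfi1 and Pdk4. All 10 were found, and all 10 were among the 16127 genes tested, those averaging 10 normalized counts or more. A normalized count is the number of reads assigned to a gene, divided by a factor that puts libraries of different depth on one scale. RNA Seq was performed on the pre-limbic cortex (PLc), a part of the medial prefrontal cortex, to look for molecular changes after repeated exposure to ketamine, a blocker of the NMDA type of glutamate receptor. Both groups were C57Bl/6 mice aged 9 weeks, for which the labels name no other allele, and the methods describe the animals used as males. Saline mice 1, 6 and 10 were injected i.p. with vehicle on each of 5 days, and ketamine mice 3, 5 and 9 with ketamine at 30 mg/kg on the same schedule. Tissue was taken 2 days after the last injection, so the values describe the cortex after a washout and not during drug exposure. Each mouse gave 1 library, with 3 libraries in each group.

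Glucocorticoids such as corticosterone enter the cell and bind 2 related nuclear receptors, the glucocorticoid receptor encoded by Nr3c1 and the mineralocorticoid receptor encoded by Nr3c2. The mineralocorticoid receptor has the higher affinity and is occupied at resting hormone levels, whereas the glucocorticoid receptor is engaged mainly during stress and at the daily hormone peak. The bound receptors move into the nucleus and attach as dimers to glucocorticoid response elements, short inverted repeats in the DNA near the genes they control. Corticosterone restrains its own release partly through receptors in the prefrontal cortex and hippocampus, and transcripts such as Fkbp5, Sgk1 and Tsc22d3 are widely used as readouts of receptor activity in brain tissue.

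The canonical response element was searched for around the annotated starts of the genes, because it is the DNA sequence through which the receptors reach such targets. The full element, spelled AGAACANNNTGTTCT, lay within 250 bases before to 50 bases after an annotated start in 3 of 16093 genes (0.0186%), of which Sgk1 was the 1 member. Within 5 kilobases on either side of a start it was found in 57 genes (0.354%), among them Sgk1 and Fkbp5. A shorter core, GNACANNNTGTNC, which every full element also holds, was found in the short window of 181 genes (1.12%) and in the wide window of 3961 genes (24.6%), the latter including Sgk1, Fkbp5, Cdkn1a and Nr3c2. Both patterns read the same on either strand, and genes with many starts have more bases in which to match, Sgk1 having 11 annotated starts and Fkbp5 5. The full elements of Sgk1 and Fkbp5, and the core matches of Cdkn1a and Nr3c2 for contrast, are shown with 20 flanking bases on each side, on the strand of the gene in build mm9, with the matched letters in capitals. All 4 lie in introns of the annotated gene, and a match is a description of the sequence, not evidence that a receptor was bound.
Sgk1, chr10:21713487-21713541, plus strand, centred 182 bases before a start: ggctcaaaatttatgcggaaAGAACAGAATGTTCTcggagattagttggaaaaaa
Fkbp5, chr17:28579344-28579398, minus strand, centred 704 bases before a start: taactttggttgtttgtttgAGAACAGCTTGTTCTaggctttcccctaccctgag
Cdkn1a, chr17:29231625-29231677, plus strand, centred 934 bases after a start: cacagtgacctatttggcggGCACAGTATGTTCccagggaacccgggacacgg
Nr3c2, chr8:79654548-79654600, plus strand, centred 2662 bases after a start: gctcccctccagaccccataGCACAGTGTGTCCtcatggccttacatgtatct

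The library of saline mouse 10 stood apart from the others in several marker lists. The values of the 10 genes and of each pathway list are therefore given with and without it. Ketamine mouse 9 also differed, holding the highest value of the 6 for 29.4% of all genes tested, against 14.1% in saline mouse 10. Marker lists are given mainly as summed levels in each mouse. Without saline mouse 10, 11 oligodendrocyte markers were higher and 0 lower in ketamine. Their median log2 fold change was 1.25, against 0.29 with all mice. In the library of saline mouse 10, the summed level of oligodendrocyte markers was 7.53 times the mean of the other saline mice, with 11 of 11 tested markers highest there, at 396406 normalized counts against 46306 and 58957 in saline mice 6 and 1 and between 110088 and 168921 in the ketamine mice. Genes of the dentate gyrus and hippocampus (7 of 7) and of dopamine neurons (3 of 3), listed after the values were seen, were also highest in this library, at 7.61 and 31.9 times the mean of the other saline mice. Slc6a3, the dopamine transporter that defines dopamine neurons, stood at 1821 normalized counts in this library, against 4.79 and 2.90 in saline mice 1 and 6 and between 25.5 and 102 in the ketamine mice. Markers of striatum were highest in ketamine mice 3 and 5 (94495 and 52171 against 17215 to 20021 in the other 4 mice), and those of olfactory bulb in ketamine mouse 9 (51121 against 19067 to 26474). Excitatory cortical neuron markers were present in all libraries, between 186874 and 241220 in saline and between 109784 and 182832 in ketamine mice, and no listed gene of these 6 lists was at 0 in every library. The libraries held between 26273436 and 32643726 reads.

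None of the 10 genes passed the test of ketamine against saline mice across all genes. The transcript of Hsd11b1, an enzyme that regenerates active glucocorticoid inside cells, came nearest. It was lower in all 3 ketamine mice than in any saline mouse, at 0.540 times the saline level by mean log2 values. Ddit4, which restrains mTOR signalling, was higher in the ketamine mice than in saline mice 1 and 6, but saline mouse 10 held the highest level of all. Of the 10 genes, 5 were higher and 5 lower in ketamine. Their median log2 fold change was 0.03, beside a median of -0.01 over all genes tested, of which 47.0% were higher. Limma, applied to log2(normalized count + 1), called 0 of the 10 and 0 of the 16127 genes (0.0%) at an adjusted p under 0.05. At an unadjusted p under 0.05 limma counted 1 member and 937 genes in all (5.81%), and the smallest adjusted p was 0.851 among the members and 0.0922 among all genes. On recovered reads, edgeR called 0 members and 0 genes, and DESeq2 called 0 members and 182 genes (1.13%).

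Without saline mouse 10, more of the genes were higher in ketamine. This was so for 8 of the 10, including 6 of the 6 stress-responsive targets. The median log2 fold change was 0.20 over the 10 genes and 0.25 over the 6 targets, while the median over all genes tested stayed at -0.02 with 47.7% higher. Limma again called 0 members and 0 genes, with 1 member (Ddit4) higher at an unadjusted p under 0.05, as were 970 genes (6.01%). DESeq2 without this mouse called 1 member, Ddit4, and 501 genes (3.11%), of which 376 were higher (2.33%), and edgeR called 0 members and 0 genes. Ketamine and saline mice did not overlap for 5 genes that were higher (Fkbp5, Tsc22d3, Ddit4, Errfi1 and Pdk4), where 15.1% of all genes showed this order, and for 1 that was lower, Hsd11b1, where 16.7% did. With all 6 mice, no member was higher without overlap (5.69% of all genes) and 1 was lower without overlap (4.66%), again Hsd11b1.

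**Figure D1:**
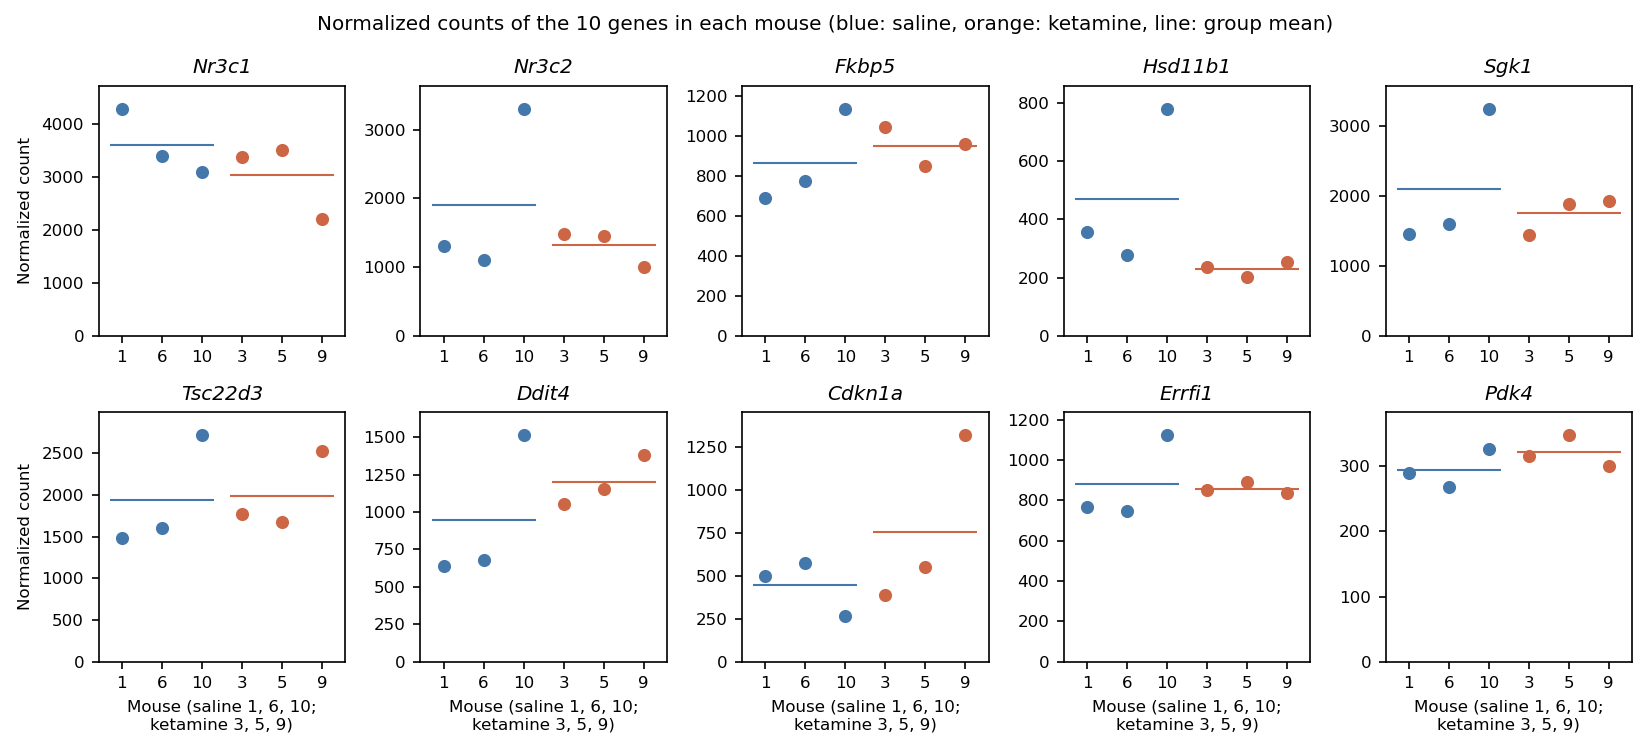
Normalized counts (linear axes from 0) of the 10 genes in each of the 6 mice; blue points are saline mice 1, 6 and 10, orange points are ketamine mice 3, 5 and 9, and the line is the group mean. Saline mouse 10 holds the highest point for 7 of the 10 genes, while the 3 ketamine points of Hsd11b1 lie below all 3 saline points.

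Nr3c1, the glucocorticoid receptor gene, lies on the minus strand of chromosome 18. It measured 4296, 3399 and 3102 normalized counts in saline mice 1, 6 and 10, against 3383, 3514 and 2202 in ketamine mice 3, 5 and 9. The groups overlapped, with the highest value in saline mouse 1 and the lowest in ketamine mouse 9, and saline mouse 10 was not high for this gene. Saline and ketamine mice averaged 3599 ± 622 and 3033 ± 723 (SD, n = 3 each). Taken by limma between mean log2 values, the log2 fold change was -0.26 (SE 0.220) with an adjusted p of 0.999. Its 95% interval ran from -0.78 to 0.25, so neither a lower nor a slightly higher level of the receptor transcript was distinguishable from no difference. Leaving out saline mouse 10 gave a log2 fold change of -0.36 (SE 0.245, limma adjusted p 0.676), and leaving out ketamine mouse 9 gave -0.05.

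Nr3c2 encodes the mineralocorticoid receptor and lies at chr8:79423341-79768911 on the plus strand. Its level was 1305, 1102 and 3309.8 normalized counts in saline mice 1, 6 and 10, against 1489, 1455 and 1005 in ketamine mice 3, 5 and 9. Saline mouse 10 stood at 2.75 times the mean of the other saline mice, whereas the remaining 5 mice lay between 1005 and 1489 with the groups overlapping. The means were 1906 ± 1220.3 in saline and 1316 ± 270.1 in ketamine mice (SD, n = 3 each). Taken between mean log2 values, the log2 fold change was -0.38 (SE 0.406, limma adjusted p 0.999). Without saline mouse 10 its sign turned, to 0.11 (SE 0.217, limma adjusted p 0.904). The oligodendrocyte, hippocampal and dopamine neuron genes given above were highest in the same library as Nr3c2, and their part in this value was not tested. In bulk tissue, more cells of a type and more RNA per cell cannot be told apart. Of its exon bases, 247 are shared with Gm10649 on the opposite strand, a gene with a mean of 50.9 normalized counts, and the counting's strand setting is not given in the sources used here. The other 9 genes shared no exon bases with another gene.

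The balance of the receptor transcripts within a mouse does not depend on the library's scaling factor. Per kilobase of exon, Nr3c1 stood at 2.87 and 2.69 times the level of Nr3c2 in saline mice 1 and 6, at 0.817 times in saline mouse 10, and at 1.98, 2.11 and 1.91 times in ketamine mice 3, 5 and 9. Glucocorticoid receptor transcripts were thus the more abundant in 5 of the 6 mice and the less abundant in saline mouse 10. The log2 ratio averaged 0.886 ± 1.02 in saline and 0.998 ± 0.0710 in ketamine mice (SD), a difference of 0.11 with an exact two-sided permutation p of 1. In the 5 mice other than saline mouse 10, the ketamine mice were lower by a log2 difference of -0.48 and did not overlap the other saline mice, with an exact permutation p of 0.2, the smallest that 2 mice against 3 allow.

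**Figure D2:**
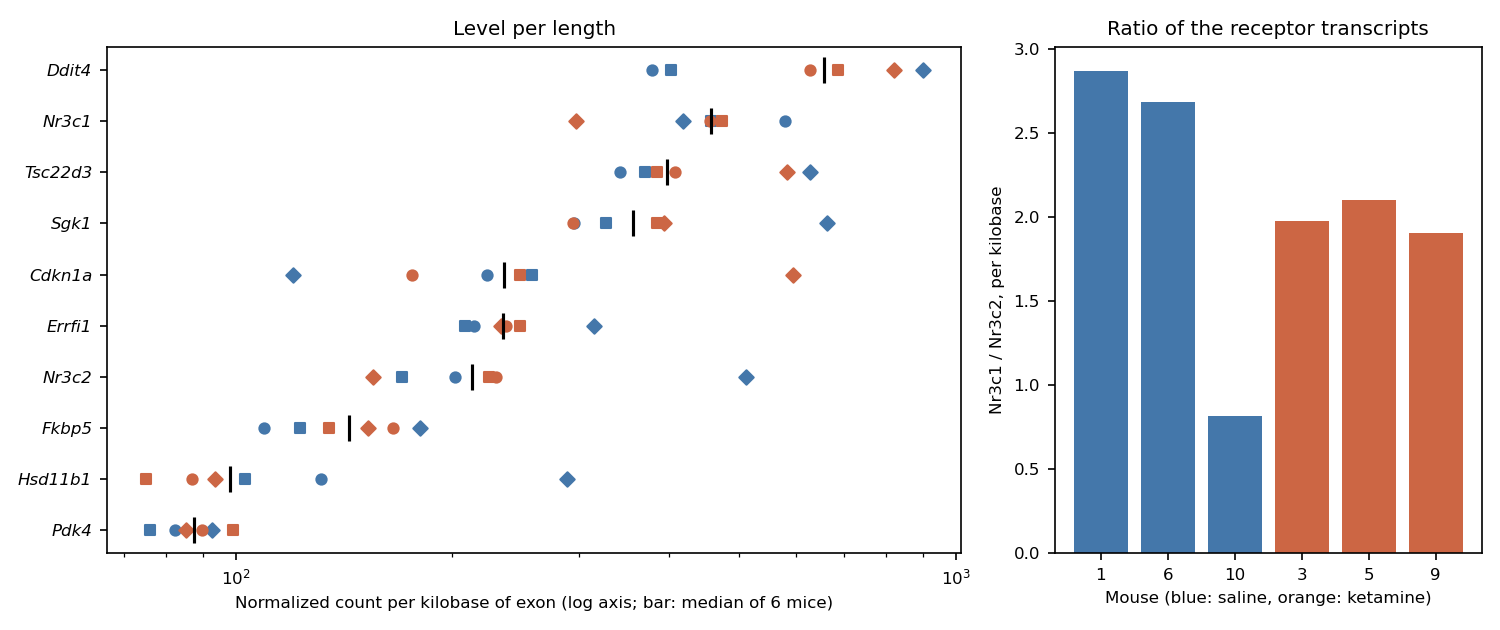
Left, normalized count per kilobase of exon (log axis) of the 10 genes in each mouse, ordered by the median of 6 mice (black bar); blue symbols are saline mice 1 (circle), 6 (square) and 10 (diamond) and orange symbols ketamine mice 3 (circle), 5 (square) and 9 (diamond). Right, bars from 0 give the ratio of Nr3c1 to Nr3c2 per kilobase in each mouse, between 1.91 and 2.87 in 5 mice and 0.817 in saline mouse 10.

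Fkbp5 encodes a co-chaperone that binds the receptor complex and lowers its affinity for hormone, and its induction by the receptor forms a short feedback loop. The gene lies at chr17:28536040-28654469 on the minus strand and holds the intronic full element shown above. Its level was 692, 775 and 1139 normalized counts in saline mice 1, 6 and 10, against 1044, 852 and 964 in ketamine mice 3, 5 and 9. All 3 ketamine mice lay above saline mice 1 and 6 and below saline mouse 10, which was 1.55 times the mean of the other saline mice. Group means of 868 ± 238 and 953 ± 96.5 (SD, n = 3 each) gave a log2 fold change of 0.16 (SE 0.207, limma adjusted p 0.999), and 0.38 (SE 0.157, limma adjusted p 0.459) without saline mouse 10, with a 95% interval of -0.0053 to 0.76.

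Hsd11b1 encodes 11-beta-hydroxysteroid dehydrogenase type 1, which converts inactive 11-dehydrocorticosterone back to corticosterone and so raises the hormone available to receptors inside a cell. The gene lies at chr1:195047824-195090248 on the minus strand. It measured 355, 279 and 782 normalized counts in saline mice 1, 6 and 10, against 236, 203 and 254 in ketamine mice 3, 5 and 9. The groups did not overlap, although the nearest values, 279 in saline mouse 6 and 254 in ketamine mouse 9, were close, and saline mouse 10 was 2.47 times the mean of the other saline mice. Saline mice averaged 472 ± 271 and ketamine mice 231 ± 25.7 (SD, n = 3 each). Taken between mean log2 values, the log2 fold change was -0.89 (SE 0.365). Its unadjusted p was 0.0443 and its adjusted p 0.851 by limma, and the adjusted p was 0.743 by edgeR and 0.324 by DESeq2. The exact two-sided permutation p was 0.1, the smallest that 3 mice against 3 allow. The difference was smaller but kept its direction without saline mouse 10, at -0.45 (SE 0.199, limma adjusted p 0.488). Hsd11b1 was the 1 member whose groups did not overlap with all 6 mice, and leaving out a mouse cannot make such groups overlap. Without saline mouse 10 its unadjusted p was 0.0622 by limma, and it did not pass the test across all genes in either case. The summed level of choroid plexus markers had the same order, at 8296 to 14706 in saline and 6446 to 7348 in ketamine mice, with 6 of 9 tested markers highest in saline mouse 10 and none of the listed markers at 0 in every library. Gene by gene these markers went both ways, 4 being higher and 5 lower in ketamine with all mice, and 7 higher and 2 lower without saline mouse 10. Excitatory neuron markers were also lower in each ketamine mouse than in any saline mouse, for 11 of 12 by the group means, and the part of either list in the Hsd11b1 difference was not tested.

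Sgk1, serum- and glucocorticoid-regulated kinase, controls ion channels and transporters and lies at chr10:21601990-21719709 on the plus strand, with the full response element close before one of its starts. Its level was 1447, 1601 and 3246 normalized counts in saline mice 1, 6 and 10, against 1439.9, 1888 and 1928 in ketamine mice 3, 5 and 9. The groups overlapped, ketamine mouse 3 being the lowest of all and saline mouse 10 the highest at 2.13 times the mean of the other saline mice. The log2 fold change of -0.17 (SE 0.310, limma adjusted p 0.999) became 0.19 (SE 0.178, limma adjusted p 0.785) without saline mouse 10.

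Tsc22d3 encodes GILZ, a leucine zipper protein induced by glucocorticoids that carries part of their anti-inflammatory action, and lies at chrX:137074067-137135198 on the minus strand. It measured 1482, 1605 and 2721 normalized counts in saline mice 1, 6 and 10, against 1771, 1673 and 2527 in ketamine mice 3, 5 and 9. Saline mouse 10 and ketamine mouse 9 were high, and the other 4 mice lay between 1482 and 1771, with both ketamine mice of these above both saline mice. Its log2 fold change was 0.07 (SE 0.270, limma adjusted p 0.999), 0.34 (SE 0.210, limma adjusted p 0.637) without saline mouse 10 and -0.11 without ketamine mouse 9.

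Ddit4 encodes REDD1, an inhibitor of the growth-promoting kinase complex mTORC1, and its transcript is induced by glucocorticoids, low oxygen and energy shortage. The gene is compact, at chr10:59412423-59414518 on the minus strand. Its level was 637, 677.5 and 1515 normalized counts in saline mice 1, 6 and 10, against 1056, 1155 and 1381 in ketamine mice 3, 5 and 9. Saline mice 1 and 6 were the lowest 2 of the 6, and the 3 ketamine mice lay between them and saline mouse 10, which was 2.31 times the mean of the other saline mice. The means were 943 ± 496 in saline and 1198 ± 167 in ketamine mice (SD, n = 3 each). Taken between mean log2 values, the log2 fold change was 0.45 (SE 0.330, limma adjusted p 0.999). Leaving out saline mouse 10, the saline mean was 657 ± 28.6. The log2 fold change between mean log2 values was then 0.86 (SE 0.166, limma unadjusted p 0.00187, limma adjusted p 0.222), a fold of 1.81. DESeq2 gave 0.88 with an adjusted p of 0.0022 for these 5 mice, where edgeR gave 0.87 with an adjusted p of 0.248. Without both saline mouse 10 and ketamine mouse 9 the log2 fold change was 0.75 (SE 0.109, limma adjusted p 0.0251), a setting in which limma called 587 genes (3.64%). The Ddit4 call thus rested on leaving out a library and on the tool. The summed oligodendrocyte markers had the same order as Ddit4 between these groups. The ketamine mice lay above saline mice 1 and 6 and below saline mouse 10. Fkbp5, Tsc22d3 and Errfi1 shared this order. The part of the oligodendrocyte markers in the values of these genes, Ddit4 included, was not tested.

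**Figure D3:**
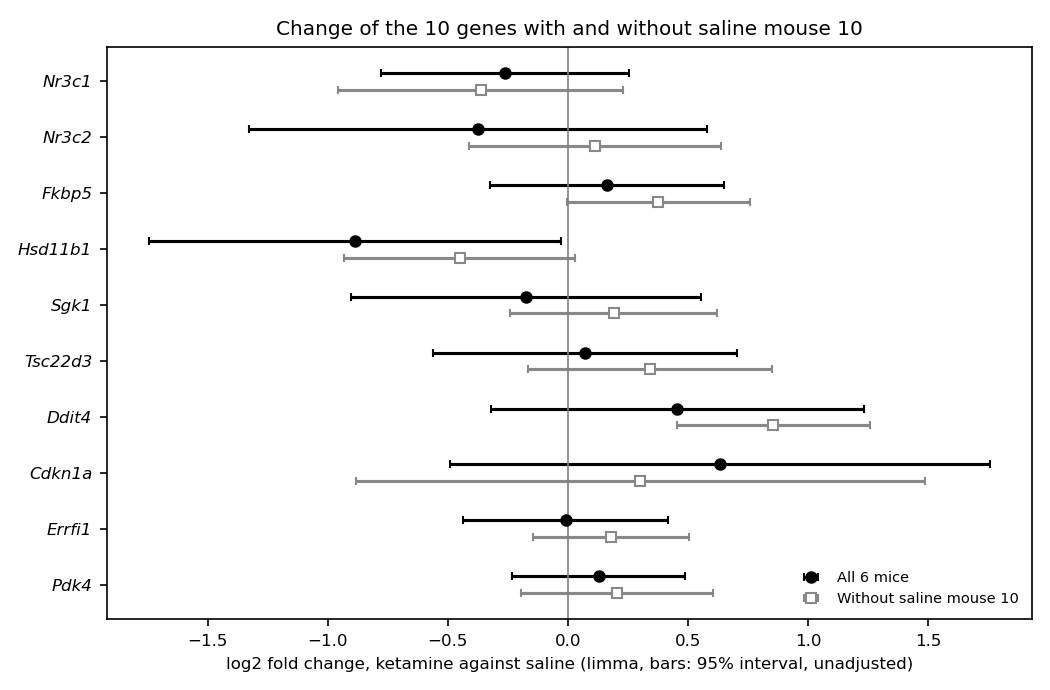
Log2 fold change of each of the 10 genes, ketamine against saline, from limma with all 6 mice (filled circles) and without saline mouse 10 (open squares); bars are unadjusted 95% intervals and the vertical line marks no difference. With all mice the interval of Hsd11b1 alone lies apart from 0 (-1.75 to -0.030), and without saline mouse 10 that of Ddit4 alone does (0.45 to 1.26).

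Cdkn1a encodes p21, an inhibitor of cyclin-dependent kinases that is induced by p53 as well as by glucocorticoids, and lies at chr17:29227924-29237667 on the plus strand. It went a different way from the other targets, at 497, 573 and 267 normalized counts in saline mice 1, 6 and 10, against 391, 551 and 1322 in ketamine mice 3, 5 and 9. Saline mouse 10 was the lowest of the 6, at 0.499 times the mean of the other saline mice, and ketamine mouse 9 was the highest, at 2.90 times the mean of the other 5 mice. The log2 fold change was 0.63 (SE 0.479, limma adjusted p 0.999), 0.30 (SE 0.489, limma adjusted p 0.884) without saline mouse 10, and -0.20 without both of these mice. Olfactory bulb markers were highest in the same mouse as Cdkn1a, with 13 of 15 tested markers at their highest there, and their part in the value was not tested.

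Errfi1 encodes MIG6, a feedback inhibitor of the EGF receptor that glucocorticoids induce in several tissues, and lies at chr4:150228028-150243001 on the plus strand. Its level was 767, 747 and 1126 normalized counts in saline mice 1, 6 and 10, against 849.65, 889.96 and 836 in ketamine mice 3, 5 and 9. The ketamine mice were tightly grouped, above saline mice 1 and 6 and below saline mouse 10. The log2 fold change of -0.01 (SE 0.182, limma adjusted p 0.999) became 0.18 (SE 0.134, limma adjusted p 0.713) without saline mouse 10, and 0.02 with upper-quartile scaling of the 6 libraries.

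Pdk4 encodes a pyruvate dehydrogenase kinase that shifts cells from glucose to fatty acid use in fasting, and lies at chr6:5433351-5446309 on the minus strand. It was the steadiest of the 10 genes, at 289, 267 and 326 normalized counts in saline mice 1, 6 and 10, against 315, 348 and 300.03 in ketamine mice 3, 5 and 9. The highest value was 1.30 times the lowest, the groups overlapped, and saline mouse 10 was 1.17 times the mean of the other saline mice. Pdk4 had a log2 fold change of 0.13 (SE 0.153, limma adjusted p 0.999), and 0.20 (SE 0.165, limma adjusted p 0.744) without saline mouse 10.

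Across the 10 genes, saline mouse 10 held the highest value for 7, where 14.1% of all genes tested were highest in that library, and ketamine mouse 9 for 1 (Cdkn1a), where 29.4% of all genes were. Saline mouse 10 was at least 1.5 times the mean of the other saline mice for 6 of the 10 genes, beside 10.9% of all genes. The median deviation of the 10 genes from their means over the mice was -0.17, -0.20 and 0.45 on the log2 scale in saline mice 1, 6 and 10, against -0.0037, 0.040 and 0.016 in ketamine mice 3, 5 and 9. The medians of the ketamine mice lay between those of the saline mice, although single genes went far to either side in ketamine mouse 9, where Cdkn1a stood at 2.90 and Nr3c2 at 0.580 times the mean of the other 5 mice. Nr3c1 and Cdkn1a did not share the high level in saline mouse 10, standing at 0.806 and 0.499 times the mean of the other saline mice. Pdk4 stood at 1.17 times that mean and was highest in ketamine mouse 5.

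On the scale of normalized counts per kilobase of exon, Ddit4 had the highest median level of the 10 genes over the 6 mice, at 656, followed by Nr3c1 at 457, Tsc22d3 at 397 and Sgk1 at 356. Cdkn1a (236), Errfi1 (235) and Nr3c2 (213) were intermediate, and Fkbp5 (144), Hsd11b1 (98.4) and Pdk4 (87.6) were the lowest. Each neighbouring pair in this order had overlapping ranges over the 6 mice, so that neighbours did not differ beyond their spread. The ends of the order were well separated, since the lowest Ddit4 value, 378, lay above the highest Pdk4 value, 99.1.

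The receptors work within a larger machinery, and 23 of the 24 listed genes for receptor chaperones and co-regulators were matched and tested. Ketamine mice had 6 of these higher and 17 lower, the median log2 fold change being -0.08, and 0 of 23 at an unadjusted p under 0.05 by limma. The count rested on ketamine mouse 9, without which 12 were higher and 11 lower, with a median of 0.0039, while 4 were higher and 19 lower without saline mouse 10, with a median of -0.16. The 3 with the smallest p were Ppargc1a, a coactivator of energy metabolism, at 0.20 (SE 0.154), Ncoa1, a steroid receptor coactivator, at -0.29 (SE 0.237), and Fkbp4, the co-chaperone that competes with Fkbp5, at 0.17 (SE 0.149), with a limma adjusted p of 0.999 for each, and at 0.21, -0.34 and 0.23 without saline mouse 10. In contrast to the targets, 0 of the 23 were highest in saline mouse 10.

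Genes that supply, carry or clear the hormone ranged from 0 to about the level of the members. Of 12 listed, 8 passed the filter, with Abcb1a, which encodes an efflux pump of the blood-brain barrier, between 935 and 1223 normalized counts (named after its values were seen), 2 being higher and 6 lower at a median log2 fold change of -0.09 and 0 at an unadjusted p under 0.05 by limma, whereas 5 were higher and 3 lower without ketamine mouse 9. Leaving out saline mouse 10 gave 2 higher and 6 lower, with a median of -0.07. Hsd11b2, the enzyme that inactivates corticosterone, was at or under 2.20 normalized counts in every mouse, so that of the enzyme pair only Hsd11b1 was measured well. Serpina6, the plasma carrier of corticosterone, and Cyp11b1, which completes its synthesis in the adrenal gland, were listed at 0 in every library. The 3 genes with the smallest p were Cyp11a1, the first enzyme of steroid synthesis, at -0.49 (SE 0.253, limma adjusted p 0.953), the transporter gene Abcb1b at -0.42 (SE 0.256, limma adjusted p 0.999) and the steroid dehydrogenase Akr1c14 at 0.26 (SE 0.251, limma adjusted p 0.999). Cyp11a1 ran between 77.2 and 132 normalized counts in saline and between 65.3 and 73.4 in ketamine mice, without overlap. The log2 fold changes of these 3 genes without saline mouse 10 were -0.27, -0.32 and 0.28.

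A wider list of 40 other glucocorticoid-responsive genes was examined beside the 6 targets. With all mice, 38 were tested, 23 being higher and 15 lower at a median log2 fold change of 0.05, and 3 higher and 2 lower at an unadjusted p under 0.05 by limma (3.44% and 2.37% of all genes). Without ketamine mouse 9, 18 were higher and 20 lower. Without saline mouse 10, 27 were higher and 11 lower, with a median of 0.22. At an unadjusted p under 0.05, 9 were higher and 1 lower, where 970 of all genes were higher (6.01%) and 810 lower. In the same fit, 11 oligodendrocyte markers were higher and 0 lower, all 11 at an unadjusted p under 0.05. Of the astrocyte markers, 11 were higher and 1 lower, 3 of the former at an unadjusted p under 0.05. The part of these cell types in the values of the list was not tested. Saline mouse 10 was the highest of the 6 mice for 14 of the 38. Limma called 0 of the 38 in each of these fits.

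Of the 3 genes of this list with the smallest p with all mice, 2 were lower and 1 higher in ketamine, and none passed the test. Gpd1, a glycerol-3-phosphate dehydrogenase expressed in glia, measured 2527, 2434 and 2712 normalized counts in saline mice 1, 6 and 10, against 1539, 2246.5 and 1779 in ketamine mice 3, 5 and 9, a log2 fold change of -0.48 (SE 0.163, limma adjusted p 0.717). Zbtb16, a zinc finger repressor, had values of 1321, 966 and 1151 in saline and 514, 1061 and 366 in ketamine mice in the same order, at -0.96 (SE 0.368, limma adjusted p 0.797). Cdo1, the enzyme that starts cysteine breakdown, had values of 747, 702 and 588 in saline and 981, 760.1 and 1129 in ketamine mice, at 0.48 (SE 0.185, limma adjusted p 0.797). The groups did not overlap for Gpd1 and Cdo1 and overlapped for Zbtb16. Without saline mouse 10 their log2 fold changes were -0.44 for Gpd1, -0.95 for Zbtb16 and 0.38 for Cdo1.

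DESeq2 without saline mouse 10 called 3 genes of the list higher and 1 lower, which are named after their values were seen, beside 376 of all genes higher (2.33%) and 125 lower (0.775%) in the same fit. Tiparp, an ADP-ribosyltransferase, measured 279, 291 and 597 normalized counts in saline mice 1, 6 and 10, against 605, 656 and 567 in ketamine mice 3, 5 and 9, a log2 fold change of 0.74 by limma with all mice and 1.09 (SE 0.153, limma adjusted p 0.158) without saline mouse 10. Arl4d and Ucp2, a mitochondrial carrier, were the others called higher, at 1.06 (SE 0.223) and 0.75 (SE 0.196) by limma without saline mouse 10. Camk1g, a neuronal calcium-dependent kinase, was called lower, at -0.70 (SE 0.135). As for Ddit4, saline mouse 10 lay on the ketamine side of the other saline mice for each of these 4 genes. Choosing genes that were called only after that mouse was left out favours this pattern.

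**Figure D4:**
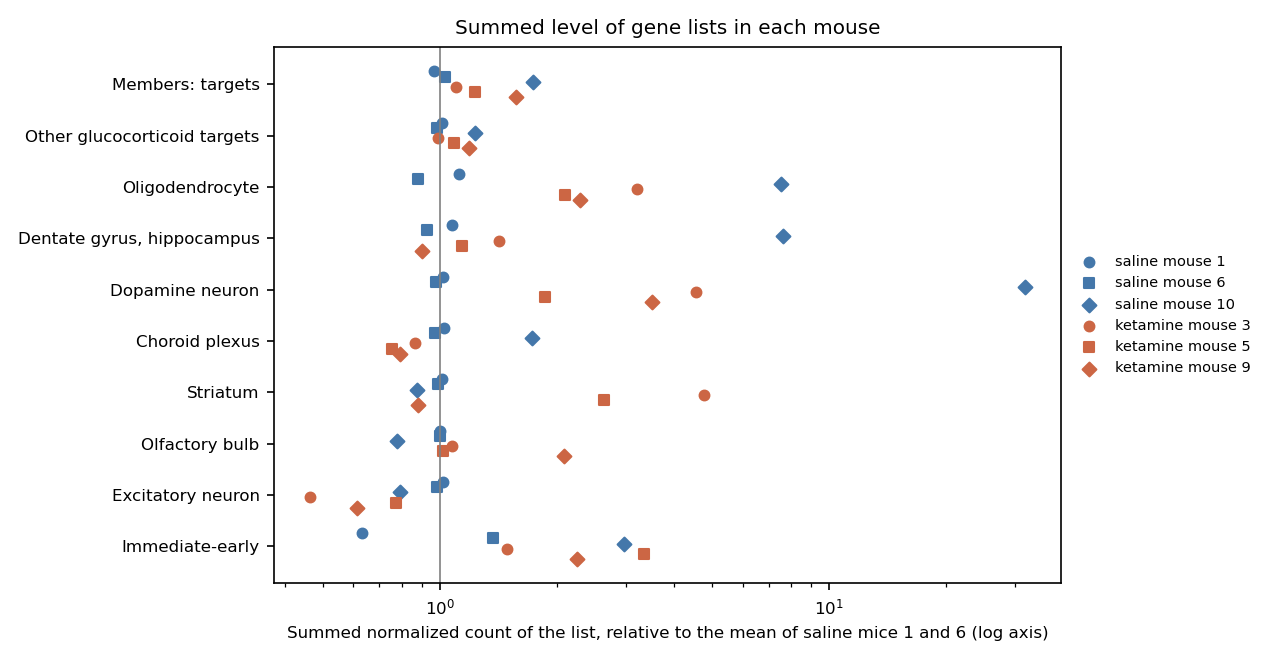
Summed normalized count of gene lists in each mouse, relative to the mean of saline mice 1 and 6 (log axis; vertical line at that mean); blue symbols are saline and orange symbols ketamine mice. The sum of the 6 target genes lies highest in saline mouse 10. The sum of the wider target list is 118604 there and nearly as high, 114474, in ketamine mouse 9. Of its 38 tested genes, 14 were highest in the former and 12 in the latter. In saline mouse 10, oligodendrocyte markers stand at 7.53 and dopamine neuron genes at 31.9 times the mean of saline mice 1 and 6.

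Peptides and receptors of the hypothalamic stress system were also examined, and 9 of 12 listed genes passed the filter. In ketamine mice 7 of them were higher and 2 lower, the median log2 fold change being 0.60, or 0.27 without ketamine mouse 3 and, with 6 higher and 3 lower, 0.85 without saline mouse 10. Oxtr, the oxytocin receptor, was the 1 gene of the pathway lists that DESeq2 called with all 6 mice. In the same fit it called 182 of all 16127 genes (1.13%). It measured 163, 151 and 159 normalized counts in saline mice 1, 6 and 10, against 338, 447 and 350 in ketamine mice 3, 5 and 9. The groups did not overlap, an order that 5.69% of all genes showed in this direction. Saline mouse 10 was like the other saline mice. Oxtr had a log2 fold change of 1.25 (SE 0.169, limma adjusted p 0.173), and 1.27 with an adjusted p of 1.08e-06 by DESeq2, whereas edgeR gave an adjusted p of 0.181. It was 1.26 by limma without saline mouse 10, and between 1.12 and 1.32 when each mouse was left out in turn. Summed GABAergic neuron markers also separated the groups, at 31684 to 37029 in saline and 38893 to 57028 in ketamine mice. Gene by gene, 4 of these markers were higher and 4 lower. Summed excitatory neuron markers were lower in each ketamine mouse than in any saline mouse. The part of these markers, or of the striatum and olfactory bulb markers given above, in the Oxtr difference was not tested. Avp and Oxt, the vasopressin and oxytocin genes, were at or under 2.20 in the saline mice and reached 569 and 909 in ketamine mouse 3, where the other ketamine mice had 10.3 and 23.6 for Avp and 3.76 and 7.25 for Oxt, so that 1 library held nearly all of both.

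Several of the 6 targets answer to other signals too, and limma called no gene of the lists for these pathways. Of 16 p53 targets, the list to which Cdkn1a also belongs by function, 7 were higher and 9 lower (median log2 fold change -0.04), or 9 and 7 (0.02) without saline mouse 10. Btg2, an antiproliferative gene of that list, was at 236, 349 and 819 normalized counts in saline mice 1, 6 and 10, against 702, 828 and 864 in ketamine mice 3, 5 and 9. Its log2 fold change was 0.96 (SE 0.417, limma adjusted p 0.865), and 1.47 (SE 0.217, limma adjusted p 0.169) without saline mouse 10, where DESeq2 called it. Bbc3, a p53-induced cell death gene, was at 0.51 (SE 0.218) and Trp53inp1 at 0.36 (SE 0.185), with limma adjusted p-values of 0.860 and 0.953, and at 0.60 and 0.50 without saline mouse 10.

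Of 15 genes of the integrated stress response, a programme that like REDD1 answers to nutrient shortage, 10 were higher and 5 lower (median log2 fold change 0.03), or 7 and 8 (-0.02) without saline mouse 10. Its leading genes by p were Trib3 at 1.04 (SE 0.442) from under 30 normalized counts in every mouse, Atf5 at 0.27 (SE 0.269) and Atf3 at 0.50 (SE 0.503), or 1.41, 0.49 and 1.0 without saline mouse 10. Of 16 genes of fasting and lipid oxidation, the setting of Pdk4, 9 were higher and 7 lower, with a median of 0.05, or 8 and 8 (-0.02) without ketamine mouse 3 and 10 and 6 (0.08) without saline mouse 10. Fabp7, a fatty acid carrier of astrocytes and progenitors, was at 1.32 (SE 0.534, limma adjusted p 0.838) with 3344 normalized counts in ketamine mouse 9 against 477 to 833 in the other 5, and Foxo1, a transcription factor active in fasting, was at 0.73 (SE 0.322), these being 1.28 and 0.99 without saline mouse 10. Of 13 tested genes of EGF receptor signalling and its feedback, in which Errfi1 acts, 9 were higher and 4 lower, with a median of 0.18 and 0 at an unadjusted p under 0.05 by limma. The median was 0.32 without saline mouse 10, with 9 higher and 4 lower, 3 of the former at an unadjusted p under 0.05, and 0.33 without ketamine mouse 9, with 11 higher and 2 lower. DESeq2 without saline mouse 10 called Erbb3, a receptor of this family named after its values were seen, which was at 0.91 (SE 0.234, limma adjusted p 0.277) in those mice and 0.32 with all 6. Erbb2 was at 0.41 (SE 0.208), and the ligands Tgfa and Hbegf at 0.67 (SE 0.386) and 0.28 (SE 0.180), with limma adjusted p-values of 0.953 or above, and at 0.32, 1.01 and 0.33 without saline mouse 10.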

How the data were processed

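RNA was taken from the PLc of 3 saline and 3 ketamine mice, grouped by the sample labels. Per the methods and the submitters' processing notes, TopHat2 2.0.11 aligned the paired reads to mm9, HTSeq counted them by gene and DESeq2 was used for the comparison. The annotation, strand setting and filters are not given in the sources used here. The deposited table holds a signal for every gene: its count after division by a factor specific to the library. Dividing by the value of 1 read gave whole reads for 100% of values in every library, to within 0.1 of a read, and these reads served the count tests. Limma 3.58.1 in R 4.3.3 was the main test although the study used DESeq2, since the values are not raw counts. It was run on log2(normalized count + 1), with a trend, over the 16127 genes averaging 10 or more, two-sided, with Benjamini-Hochberg adjustment at 0.05. The fold changes are on that scale and understate changes of low genes. The labels number the mice but name no litter or batch. The p-values of limma, edgeR and DESeq2 set the group difference against variation between mice, estimated partly across all genes tested.

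EdgeR 4.0.16 with TMM and DESeq2 1.42.0 on recovered reads, pseudocounts of 0.1 and 5, no filter or a mean of at least 100, recomputed size factors, upper-quartile scaling, no trend and leaving out each mouse were alternatives. Fits of edgeR and DESeq2 without saline mouse 10, and of limma without saline mouse 10 and ketamine mouse 9, were added after seeing the data. The fits were tested on simulated reads. Single genes and the receptor ratio were also compared by exact two-sided permutation over mice, whose smallest p is 0.1. Genes named are the members, the 3 with the smallest p in each pathway list and those called by a tool, except 1 gene that is not reported here. The members and lists were chosen with earlier results of these data known, and the dentate gyrus, dopamine neuron and immediate-early lists after values were seen. Lengths, introns and starts are those of GENCODE M1 on mm9, which held 37205 of the 37620 identifiers. Symbols were deposited for 20515 genes and filled from a table of gene names for 16730. A normalized count is between 0.906 and 1.10 times a read, which gives the depth behind each value.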

Additional observations from a re-analysis of the deposited data

How the results depend on the processing

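The count of genes called by limma, 0, became 182 with DESeq2, 501 with DESeq2 without saline mouse 10 and 587 without saline mouse 10 and ketamine mouse 9, and ran from 0 to 1 when each mouse was left out in turn. The count of members called, 0, became 1 (Ddit4, at 0.88 and 0.75) under the last 2 of these and stayed at 0 when each mouse was left out. The members' median log2 fold change ran from -0.10 to 0.20 with each mouse left out. Over 9 alternatives that kept all mice, 89 of 90 member values kept their direction and side of the threshold, the other being Errfi1 with upper-quartile scaling (0.019). Leaving out 1 mouse moved Cdkn1a between 0.13 and 1.01 with no change of sign. Of 60 values with 1 mouse left out, 53 did so, and the ranges that turned sign were -0.68 to 0.11 for Nr3c2, -0.39 to 0.19 for Sgk1, -0.11 to 0.34 for Tsc22d3, -0.11 to 0.18 for Errfi1, and -0.48 to 0.43 for the receptor ratio, which was -0.48 without saline mouse 10. Without saline mouse 10, edgeR and DESeq2 gave 0.14 and 0.14 for Nr3c2, 0.21 and 0.21 for Sgk1, and 0.19 and 0.19 for Errfi1. Without saline mouse 10 and ketamine mouse 9, limma gave 0.30 for Nr3c2, 0.12 for Sgk1, 0.20 for Errfi1 and -0.20 for Cdkn1a. The cause of these reversals was not tested. With 3 mice in each group, no single gene could reach an exact permutation p under 0.1. No paired analysis was possible because the labels give nothing that links mice of the 2 groups.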

Other observations

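Immediate-early genes, which neurons and glia switch on within minutes of activity or stress, were listed after their values were seen and are given as values. Their summed level over Fos, Npas4, Arc, Egr2, Junb and Nr4a1 was 2856, 6196 and 13452 normalized counts in saline mice 1, 6 and 10, against 6741, 15155 and 10174 in ketamine mice 3, 5 and 9. The ranges of the groups overlapped, with saline mouse 1 the lowest and ketamine mouse 5 the highest, and all 6 genes had a higher mean log2 level in ketamine. The median log2 fold change of the 6 was 0.75, and 1.31 without saline mouse 10. Saline mouse 10 was the highest of the 6 mice for 1 of these 6 genes, beside 14.1% of all genes tested and 7 of the 10 glucocorticoid genes. The summed level of the immediate-early genes in saline mouse 10 was nevertheless 2.97 times the mean of the other saline mice, against 1.54 times for the 10 glucocorticoid genes.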
